A study of Mus musculus with 6 samples.

Results

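Eef1a1, Brd2, Srsf2 and Pkm are genes of translation, chromatin reading, splicing and glycolysis that carried NRF2 chromatin immunoprecipitation (ChIP-seq) peaks in mouse embryonic fibroblasts (MEFs). The 4 genes were chosen by the authors' peak scores and by presence or absence across the same lists, since windows of Eef1a1, Srsf2 and Pkm stood among the highest-scoring windows of single comparisons and the Brd2 window stood near the top of every list. Their peaks are therefore described and not tested. All peaks whose nearest gene in the authors' annotation was a member were taken at any distance. They numbered 17 of 16057 peaks, formed 6 of 14390 merged regions and belonged to 4 of 8030 genes with an assigned peak.

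The MEFs were of the 129S6/SvEvTac strain, either wild type (WT) or GCN2-/- (KO), lacking the kinase that senses uncharged tRNA. Cells of both genotypes spent 24 h in DMEM, either complete or lacking leucine, which gives 4 conditions named here WT +Leu, WT -Leu, KO +Leu and KO -Leu, with 1 NRF2 library each; values given for the 4 lists follow this order. Input libraries came from complete medium only, 1 per genotype, and each NRF2 library was set against the input of its genotype, so the -Leu lists also rest on a +Leu input. The labels do not say how many embryos or clones the cells came from. The lists held 2336, 5980, 3141 and 4600 peaks, each a window of 301 bp. Read depth behind the lists is unknown, and a missing peak means only that the site was below the authors' threshold in that library. Peak lists measure neither RNA nor fibroblast markers, so neither the cell type nor the high expression implied by the members' grouping could be checked here.

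NRF2 pairs with small Maf proteins and binds antioxidant response elements, whose core reads TGACNNNGC, at genes for antioxidant and detoxification enzymes. Promoters of housekeeping genes, by contrast, usually lie in CpG islands, hold GC boxes and are accessible in nearly all cells. Open and strongly transcribed promoters are known as places where immunoprecipitates of many unrelated proteins gain reads. Whether the signal at these genes came from NRF2 or from promoter activity was not tested, as no library without NRF2 and no RNA or polymerase data were used here.

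The RefSeq promoter table (GRCm38.p6, 250 bases before to 50 after each start, 32851 sequences) held promoters for all 4 members. Those of Srsf2 and Eef1a1 overlapped a member window, so part of these windows could be read. Readable bases upstream of the start are shown. The 50 bases after the Eef1a1 start were also readable but are not shown. The Srsf2 stretch lies on the minus strand at chr11:116853120-116853344, bases -250 to -26 from the start, inside the windows of all 3 lists that held the site. Its capitals mark the only TGACNNNGC match in a member promoter. The Eef1a1 stretch lies on the minus strand at chr9:78481725-78481849, bases -125 to -1, inside the window of WT -Leu. Its capitals mark a GC box (GGGCGG on the other strand).
Srsf2: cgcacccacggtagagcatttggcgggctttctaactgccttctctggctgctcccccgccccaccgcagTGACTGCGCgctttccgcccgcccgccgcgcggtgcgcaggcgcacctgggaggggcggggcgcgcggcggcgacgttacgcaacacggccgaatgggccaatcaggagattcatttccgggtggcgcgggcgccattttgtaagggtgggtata
Eef1a1: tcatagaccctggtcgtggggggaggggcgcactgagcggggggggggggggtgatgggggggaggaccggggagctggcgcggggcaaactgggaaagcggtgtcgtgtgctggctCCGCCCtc

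The Srsf2 match, TGACTGCGC, lay at chr11:116853266-116853274, its first base at -180 from the start. Its midpoint was 0, 1 and 3 bases from the centre of the Srsf2 window in WT +Leu, WT -Leu and KO -Leu. Matches to TGACNNNGC on either strand were present in 12.4% of all RefSeq promoters. Among promoters that overlapped an NRF2 window the share was 37.9% (22 of 58) for WT +Leu, 27.8% (42 of 151) for WT -Leu, 32.8% (22 of 67) for KO +Leu and 28.2% (22 of 78) for KO -Leu. A stricter form, with an A directly after the core, was in 3.04% of all promoters. It was in 24.1%, 12.6%, 14.9% and 14.1% of the overlapping promoters, in the same order. The Srsf2 match has a G there and is not of this form. Eef1a1, Brd2 and Pkm had no TGACNNNGC match in any of their RefSeq promoters, which says only that these letters are not in those promoter sequences. No promoter sequence reached the Brd2, Pkm or Eef1a1 intron windows, and that of Eef1a1 covered only part of its start-site windows. Whether those windows hold a match is unknown.

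The Srsf2 match is set beside the matches in promoters of 2 antioxidant genes, Prdx1 (a peroxiredoxin that removes peroxides) and Txnrd1 (thioredoxin reductase 1), to show how alike the flanks are. Among 11 NRF2 target genes used for comparison, 8 had a promoter in the table and 4 had a match. The pair shown here are those whose match lay upstream of the start and inside a window of at least 3 lists. Each line gives 10 bases on either side of the capitalised core, all on the minus strand. They lie at chr11:116853256-116853284 for Srsf2, chr4:116685456-116685484 for Prdx1 and chr10:82859104-82859132 for Txnrd1.
Srsf2: cccaccgcagTGACTGCGCgctttccgcc
Prdx1: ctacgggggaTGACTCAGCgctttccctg
Txnrd1: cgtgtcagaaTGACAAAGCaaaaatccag
The letters TGAC and GC are the same in every line because each was picked as a match. Srsf2 and Prdx1 were identical at 16 of 29 positions, 9 of 20 in the flanks, and the 7 bases after the core were the same. Srsf2 and Txnrd1 were identical at 10 of 29 positions, 4 of 20 in the flanks, with no shared base directly after the core. The likeness to Prdx1 was noticed after the sequences were seen.

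GC boxes stood in promoters of all 4 members. Those of Brd2 and Pkm lay outside the member windows, as did the boxes at -191 in Eef1a1 and -10 in Srsf2. GGGCGG on either strand occurred 5 times in the Srsf2 promoter and 2 times in that of Eef1a1, 1 time in a Pkm promoter and 1 time each in 2 of the 3 Brd2 promoters. A match was present in 35.7% of all RefSeq promoters and in 41.8% to 51.7% of those overlapping a window of a list. A TATANA match, a loose form of the TATA box, lay at -29 from the RefSeq start in Srsf2 and, as TATATA, 23 bases after that of Eef1a1. This motif was in 24.7% of all promoters and in 12.6% to 18.97% of those overlapping a window. No member promoter held the AP-1 type sequence TGANTCA. It was in 7.81% of all promoters and in 11.5% to 27.6% of those overlapping a window of a list.

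**Figure D1:**
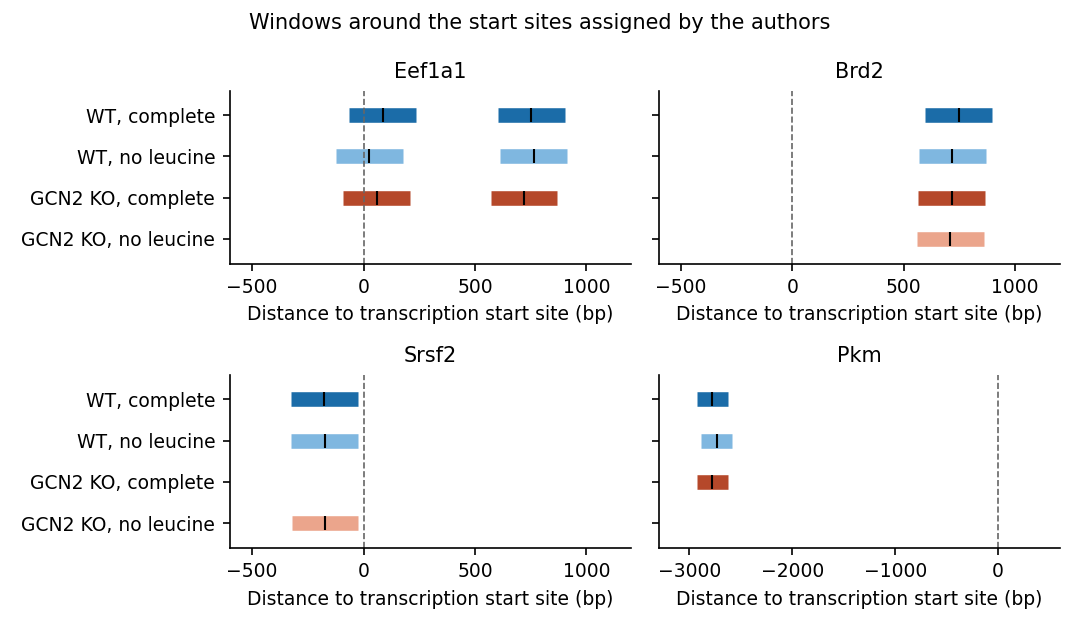
Windows of the 4 members around the start site that the authors' annotation assigned, in bp (x axis), for each peak list (rows); bars are 301 bp windows, ticks their centres, and the dashed line is the start. Eef1a1 has 2 windows in 3 lists, Brd2 a window inside intron 1 in all 4, Srsf2 a window that ends just before the start and Pkm a window far upstream; an Eef1a1 window at -13348 bp in WT -Leu is outside the range drawn.

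Across the members, WT cells had a peak at all 4 genes in both media, KO +Leu at 3 (not Srsf2), and KO -Leu at 2 (Brd2 and Srsf2). The same rule, any distance, gave a peak to 7.92% of 21896 protein-coding genes in WT +Leu, 17.3% in WT -Leu, 9.89% in KO +Leu and 13.5% in KO -Leu. The members were picked for having peaks, so nothing is read from that contrast. Within 1 kb of the start the members numbered 3, 3, 2 and 2 in the same order, beside 0.397%, 1.18%, 0.425% and 0.644% of protein-coding genes. Pkm dropped out at that distance. The KO list without leucine, with the fewest member windows, was the second longest list.

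Eef1a1 encodes the elongation factor that brings aminoacyl-tRNA to the ribosome and is among the most abundant proteins of growing cells. It had 2 neighbouring windows in each of 3 lists. The start-site window, annotated promoter-TSS, lay at chromosome 9, 78481488 to 78481788 in WT +Leu, 78481549 to 78481849 in WT -Leu and 78481515 to 78481815 in KO +Leu. Its centre was 86, 25 and 59 bp downstream of the start. The second window, in intron 1 of 7 and annotated to a CpG island, lay at 78480822 to 78481122, 78480810 to 78481110 and 78480854 to 78481154, with its centre at 752, 764 and 720 bp.

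The centres of the Eef1a1 pair were 666 bp apart in WT +Leu, 739 bp in WT -Leu and 661 bp in KO +Leu. Such spacing was rare: 0.856%, 1.94% and 0.955% of the windows in those lists had another window centre within 1 kb. Which window of the pair scored higher differed between lists. The intron window scored 90, 196 and 129 and the start-site window 27, 173 and 250 in WT +Leu, WT -Leu and KO +Leu. Ranks by score, with tied windows at their mean rank, were 270.5 of 2336 for the intron window and 1856 for the start-site window in WT +Leu (11.6% and 79.5% down the list). In WT -Leu the intron window ranked 111.5 and the start-site window 141 of 5980 (1.86% and 2.36%). In KO +Leu the order was reversed, with rank 40 for the start site and 128.5 for the intron of 3141 (1.27% and 4.09%). The start-site window thus stood in the lower part of the first list and near the top of the other two, and ranks in lists of different length do not measure a change in binding.

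KO -Leu had no window at Eef1a1. The nearest window of that list lay 316.01 kb from the intron site, and the list had none within 50 kb. A further Eef1a1 window, intergenic and in a SINE repeat (RSINE1), occurred in WT -Leu alone at 78494922 to 78495222, -13348 bp from the start. It ranked 1800 of 5980 as one of 553 windows with the same score, and a lncRNA gene, LOC115487230, starts 5911 bp from its centre. Its GC content was 47.5%, far below the other Eef1a1 windows.

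Brd2 encodes a bromodomain protein of the BET family, which binds acetylated histones at active chromatin. Its window lay in intron 1 of 12 and was annotated to a CpG island in every list. The window spanned chromosome 17, 34120851 to 34121151 in WT +Leu, 34120879 to 34121179 in WT -Leu, 34120882 to 34121182 in KO +Leu and 34120888 to 34121188 in KO -Leu. The centres, 746, 718, 715 and 709 bp from the start, varied by 37 bp. The scores were 866, 1099, 596 and 651, in lists whose highest scores were 1381, 1984, 1159 and 1188. The ranks were 6 of 2336, 4 of 5980, 9 of 3141 and 9 of 4600, all within the first 0.3% of a list (0.257%, 0.0669%, 0.287% and 0.196%).

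Few sites of known NRF2 targets stood above the Brd2 window. In WT +Leu these were Ftl1 (ferritin light chain) and Gclc (glutathione synthesis), and in the other 3 lists Ftl1 alone. Of the 11 target genes, 11, 11, 10 and 9 had a window within 10 kb in the 4 lists, with Gclm missing from both KO lists and Srxn1 from KO -Leu, and each was taken by its best window. Among windows within 1 kb of any start, Brd2 was first of 316 in WT -Leu and ranked 2 of 110, 117 and 166 in the other lists. RefSeq lists 3 starts for Brd2, at 34119900, 34121747 and 34122607, and the windows lie between the first and the second of these in genome order. None of the 3 promoter sequences reaches the window, so its bases could not be searched for a TGACNNNGC match. The window also lies inside the annotated span of H2-DMa, an antigen-presentation gene on the other strand. The nearest H2-DMa start in the RefSeq promoter table is 1802 bp away, while the H2-DMa span begins at 34119693, on the other side of the window. The assignment to Brd2 rests on the nearest start.

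Srsf2 encodes a serine- and arginine-rich splicing factor that helps define exons. Its single window, annotated promoter-TSS, lay at chromosome 11, 116853120 to 116853420 in WT +Leu, 116853119 to 116853419 in WT -Leu and 116853117 to 116853417 in KO -Leu. The centres were -176, -175 and -173 bp from the start, within 3 bp of each other, the tightest placement among the member regions found in several lists. The scores were 162, 46 and 96. The ranks were 122 of 2336 (5.22%), 1240.5 of 5980 (20.7%) and 240 of 4600 (5.22%). KO +Leu had no window there, the nearest being 128.73 kb away.

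The Srsf2 windows lie between the RefSeq start of Srsf2 and the nearest of 2 RefSeq starts of Mfsd11, which point away from each other. Mfsd11, a gene of the major facilitator superfamily on the opposite strand, has a RefSeq start 493 bp from the window centre, whereas the Srsf2 start is 175 bp away. The annotated spans of both genes cover the window, since that of Srsf2 runs to 116853675 and that of Mfsd11 begins at 116852211. The nearest-gene rule gives the peak to Srsf2 alone. The printed Srsf2 stretch with the TGACTGCGC match lies between the same pair of starts.

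Pkm encodes pyruvate kinase M, which makes pyruvate in the last step of glycolysis. Its window was not at the promoter but intergenic in the authors' annotation, at chromosome 9, 59653442 to 59653742 in WT +Leu, 59653483 to 59653783 in WT -Leu and 59653441 to 59653741 in KO +Leu. The centres were -2776, -2735 and -2777 bp from the assigned start. The scores were 141, 70 and 97. The ranks were 146 of 2336 (6.25%), 511.5 of 5980 (8.55%) and 193.5 of 3141 (6.16%). KO -Leu had no window within 50 kb, the nearest being 442.825 kb away.

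In the RefSeq table the Pkm window falls inside the span of a lncRNA gene, Gm51708, whose nearest start is 2314 bp from the centre. Parp6, the preceding protein-coding gene, ends 3151 bp before the window. The Pkm sequence could not be read, since no promoter sequence reaches it. The Pkm windows held 47.5% to 48.8% GC and 0.667% CpG, both below the median of their lists (51.2% to 52.2% GC and 1.33% CpG) and unlike the start-proximal windows of the other members.

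**Figure D2:**
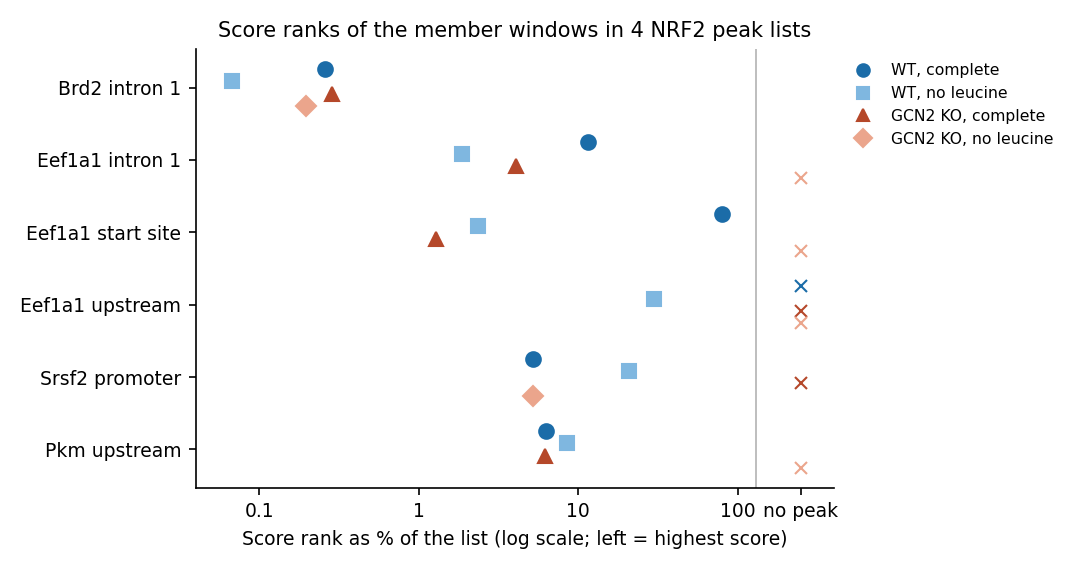
Score rank of each member window as a percentage of its list (x axis, log scale, highest scores to the left) for the 6 member regions; symbols stand for the 4 lists and a cross in the right-hand strip means no peak in that list. Brd2 lies below 0.3% in all 4 lists, while the Eef1a1 start site runs from 1.27% to 79.5% and is missing from KO -Leu.

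Base composition set 3 members apart from most windows. The Brd2 windows held 69.8% to 70.8% GC, the Eef1a1 start-site windows 69.1% to 70.4%, the Eef1a1 intron windows 63.8% to 67.4% and the Srsf2 windows 67.1% to 68.1%. The medians over all windows were 51.2% in WT +Leu, 52.0% in WT -Leu, 52.2% in KO +Leu and 51.8% in KO -Leu, and those over promoter-TSS windows 56.5%, 56.8%, 55.5% and 54.8%. Each Brd2, Srsf2 and start-site Eef1a1 window equalled or exceeded at least 98.98% of the windows of its list in GC content. Set beside promoter-TSS windows alone, they equalled or exceeded 88.7% to 95.2%. Over 60% GC was reached by 4.28%, 4.98%, 4.36% and 3.46% of the windows in the 4 lists.

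CpG content was high in the same windows. It was 12% in all 3 Srsf2 windows and 10% to 12% at the Eef1a1 start site. The Eef1a1 intron windows held 7% to 8.67% and every Brd2 window 8.67%. The median was 1.33% over all windows of each list and 3.33%, 3%, 2.67% and 2.67% over promoter-TSS windows. The authors' annotation placed the Brd2 and Eef1a1 intron windows in CpG islands, as it did 0.728%, 0.920%, 0.446% and 0.587% of all windows. Best windows of the NRF2 targets were less extreme, with median GC contents between 59.5% and 60.8% and a range from 49.2% to 75.1%. Gclm and Gclc windows, at 71.1% to 75.1%, were richer in GC than any member window, so a GC content this high also occurred at known targets.

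**Figure D3:**
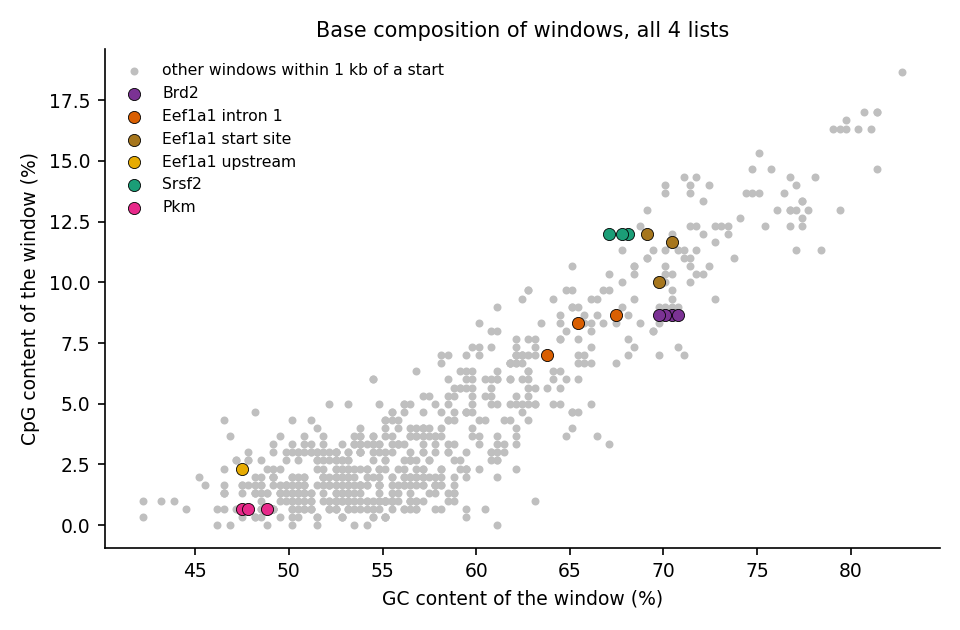
GC content (x axis, % of bases) against CpG content (y axis, % of the window) of the member windows (coloured) and of other windows within 1 kb of a start (grey), pooled over the 4 lists, so that a recurring site appears more than once. Brd2, Srsf2 and both start-proximal Eef1a1 regions lie between 63.8% and 70.8% GC, and the Pkm and upstream Eef1a1 windows below 50% GC.

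Median scores near start sites were close to those of the whole lists, but more than 10% of these windows stood in the first 10% of scores. The median score of windows within 1 kb of a start was 39, 30, 38 and 30 in the 4 lists, beside 38, 30, 34 and 31 over all windows. Of the windows within 1 kb, 19.1%, 11.4%, 20.5% and 11.4% were in the first 10% of their list's scores. For windows annotated to a CpG island the median scores were 69, 30, 44.5 and 39, from only 17, 55, 14 and 27 windows. Of these, 23.5%, 18.2%, 42.9% and 25.9% were in the first 10%. Scores are the authors' own and are compared only inside a list.

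Against the 11 target genes the other members stood lower than Brd2. Of the targets with a window, 8 of 11, 8 of 11 and 6 of 10 ranked above the higher-scoring Eef1a1 window in WT +Leu, WT -Leu and KO +Leu. Above Pkm stood 8 of 11, 11 of 11 and 7 of 10 in the same lists, and above Srsf2 8 of 11, 11 of 11 and 7 of 9 in WT +Leu, WT -Leu and KO -Leu. Fth1 (ferritin heavy chain), Ftl1, Gclc, Hmox1 (heme oxygenase), Prdx1 and Slc48a1 (a heme transporter) were above all Eef1a1, Srsf2 and Pkm windows in every list that held such a window. Nqo1, a textbook NRF2 target, ranked 2222.5 of 2336 in WT +Leu, below all member windows there.

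Leucine withdrawal in WT cells left all 5 member regions of the complete-medium list in place. Over the whole lists, 22.9% of the complete-medium windows overlapped a window of the list without leucine and 8.96% the other way, and among windows in the first 10% of scores in complete medium the share was 92.7%. Brd2, Srsf2 and Pkm were in that first 10%, and the Eef1a1 windows, at 11.6% and 79.5%, were not. The upstream Eef1a1 window was the sole addition without leucine. The comparison between the 2 lists has no replicate check.

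In KO cells, 1 of the 4 member regions in complete medium, Brd2, also had a window without leucine. Both start-proximal Eef1a1 regions and Pkm were in the complete-medium list alone, and Srsf2 in the list without leucine alone. Over the whole lists, 13.7% of the KO complete-medium windows overlapped the list without leucine and 9.33% the other way, and 73.2% and 59.5% of the first 10% did. All 4 member windows of the complete-medium list stood within its first 10% of scores. Whether this contrast differs from that in WT cells was not tested.

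Between genotypes in complete medium, 4 of the 5 WT member regions were found in KO cells, with Srsf2 missing. All 4 KO member windows overlapped a WT window, beside 11.6% of all KO windows, and 15.6% of all WT windows overlapped a KO window. Among windows in the first 10% of scores, where all 4 KO member windows stood, the shares were 70.6% from KO to WT and 74.2% from WT to KO. Without leucine, 2 of the 6 WT regions (Brd2 and Srsf2) were in the KO list and both KO windows were in the WT list. The shares over all windows were 7.96% of WT and 10.4% of KO windows, and over the first 10% of scores 56.3% and 67.0%. Members were chosen from these contrasts, and the counts are descriptions.

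Brd2 was the only member region in all 4 lists, a group of 256 of 14390 regions (1.78%). The 2 Eef1a1 regions and Pkm shared the pattern of both WT lists and KO +Leu, which 59 regions had. Of the 315 regions in those 3 lists, 81.3% were also in KO -Leu. Srsf2 was 1 of 72 regions in both WT lists and KO -Leu, and of 328 regions in those lists 78.0% were also in KO +Leu. A site in a single list, as the upstream Eef1a1 window, was the commonest case, with 93.5% of regions. Other overlap rules (50% of each window, centres within 100 bp, or windows widened by 500 bp) gave the same counts of shared member regions.

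Few relatives of the members had a window near their start, and few genes of any kind did. Over all protein-coding genes the shares within 1 kb were 0.397%, 1.18%, 0.425% and 0.644% in the 4 lists. The families were 9 elongation factor genes, 4 BET genes, 11 SR splicing factor genes and 18 glycolysis genes, to which 84 ribosomal protein genes and 34 other genes of usually high expression were added, 160 in all. Within 1 kb of the start Eef1a1 was the elongation factor with a window, Brd2 the BET gene and Srsf2 the SR gene, in the lists that had any. Gapdh and Aldoa, both glycolytic enzymes, had one in WT -Leu only, 2 of 18 glycolysis genes (11.1%). Of the 84 ribosomal protein genes, Rpl35a alone had one, in KO +Leu (1.19% of them).

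At any distance, Eef1a2 and Eef1e1 (translation factors), Brd3 (a BET protein) and Srsf6 (an SR splicing factor) had a window in KO -Leu. In that list 13.5% of protein-coding genes had one by the same rule. No relative of these families had one in the other 3 lists, beside 7.92%, 17.3% and 9.89% of protein-coding genes. These are small counts from single libraries, and no link to the members is read from them. Of the 17 glycolysis genes other than Pkm, 4, 8, 4 and 5 had a window, among them Gapdh, Gpi1 and the glucose transporter gene Slc2a1 in all 4 lists. Over all listed genes without the members the shares were 6.41%, 16.03%, 9.62% and 15.4%, beside the 7.92%, 17.3%, 9.89% and 13.5% of protein-coding genes. The pooled shares hide unlike lists. With Pkm counted, glycolysis genes stood above the protein-coding shares, at 27.8%, 50%, 27.8% and 27.8%. Pkm, picked for having peaks, adds to the count in every list but KO -Leu. Exact 95% intervals were 9.69 to 53.5 in WT +Leu, KO +Leu and KO -Leu and 26.0 to 74.0 in WT -Leu. These intervals held the protein-coding share in both KO lists and lay above it in both WT lists. Ribosomal protein genes stood below the protein-coding shares, at 3.57%, 10.7%, 9.52% and 7.14%. The ribosomal intervals held the protein-coding share in every list. The contrast between glycolysis and ribosomal protein genes was not tested.

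Within 1 kb and without the 4 members, 2, 5, 2 and 1 of 156 listed genes had a start-proximal window in the 4 lists. The shares were 1.28% (exact 95% interval 0.156 to 4.55), 3.21% (1.05 to 7.32), 1.28% (0.156 to 4.55) and 0.641% (0.0162 to 3.52), beside the 0.397%, 1.18%, 0.425% and 0.644% of all protein-coding genes given above. These intervals, Clopper-Pearson and for counting error only, held the value of all genes in each list, but only with the members left out, and these were picked for having peaks. With the members, 5, 8, 4 and 3 of 160 genes had such a window, and the intervals (1.02 to 7.14, 2.18 to 9.61, 0.685 to 6.28 and 0.388 to 5.38) lay above the value of all genes in WT +Leu, WT -Leu and KO +Leu and held it in KO -Leu. Neither version is free of that choice. Hsp90ab1, a chaperone gene, had such a window in both WT lists. Npm1, which encodes nucleophosmin, was in WT -Leu. Actb, Eef2, Tpt1 and other listed genes of usually high expression had no window within 1 kb in any list.

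**Figure D4:**
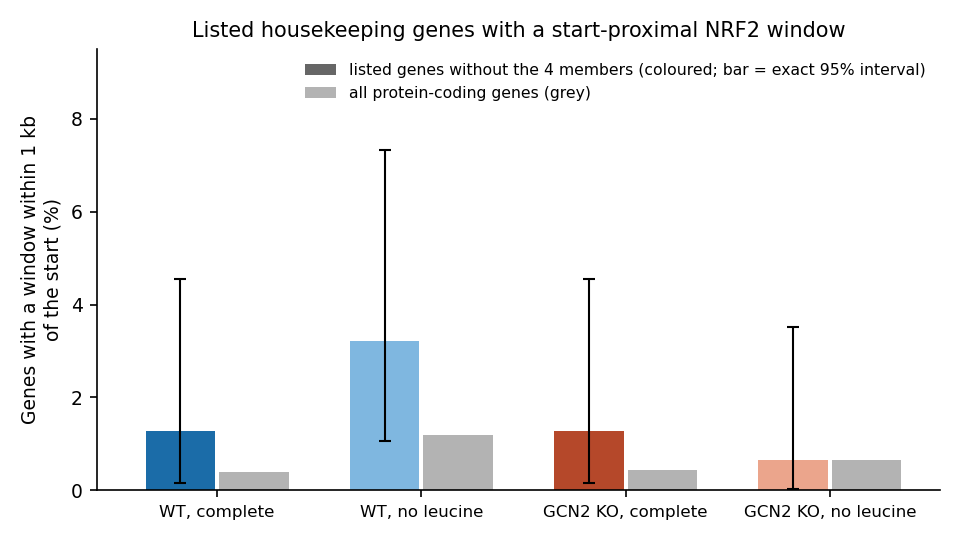
Percentage of genes with an NRF2 window within 1 kb of the start (y axis) in each list (x axis), for 156 listed housekeeping genes without the 4 members (coloured bars, with exact 95% intervals) and for all protein-coding genes (grey bars). The listed genes stand at 0.641% to 3.21% and their intervals hold the value of all genes in every list. That is not so in 3 of the 4 lists once the members are counted. The members were picked for having peaks, so neither version is free of that choice and nothing is read from the contrast.

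Genes with the most similar ranks were sought among those present in and absent from the same lists as each member, by the mean absolute difference in best-window percentile over the lists that held a window (4 for Brd2, 3 for the others). For Brd2, out of 437 genes present in all lists, these included A530013C23Rik (0.0522 percentage points) and Creld1 (0.101). For Eef1a1, out of 125 genes, they were Gemin6 (1.21), Gm16973 (2.92) and Bet1 (2.93). For Srsf2, out of 206, they were Cdan1 (3.77), Fmn1 (4.34) and Fkbp5 (5.56), and for Pkm, out of 125, Rock2 (1.18), Gm15760 (2.02) and Mamdc2 (2.76). The best windows of Fmn1 and Gm15760 lay within 1 kb of a start. The likeness describes rank alone, over 3 or 4 libraries.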

How the data were processed

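NRF2 ChIP-seq peak lists of 4 MEF libraries were used, 1 per condition, so there are no replicates, no differences were tested and no p-value is given. Per the submitters' processing notes, HOMER 4.7, MACS2 2.1.0 and BWA 0.7.12 were used, with build mm10. Per the file headers, each library was called on its own, with its genotype's +Leu input as control, and peaks were annotated as fixed windows (301 bp by their coordinates). The peak score was deposited by the authors as a whole number of at least 13, and no label or header names its caller column. Base composition (CpG and GC content) was deposited by the authors as a fraction of the window and is printed as percent. Distance to the TSS is in bp, per the file headers. Read depth is unknown.

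Windows sharing at least 1 bp were called overlapping. Ranks, overlaps, gene counts and motif matches on both strands were computed with Python 3.11.15 and pandas 2.3.3, after a test on simulated data. Symbols and promoters came from RefSeq (GRCm38.p6, the assembly behind mm10), and 228 of 362 promoter windows implied a start within 1 bp of a RefSeq start, as did those of Eef1a1 and Srsf2. All 160 housekeeping genes matched. Named genes are the members, listed genes with a window within 1 kb, 11 NRF2 targets, the 3 genes most like each member and genes near a window; a gene this rule names is not reported here. Members and lists were chosen with earlier results of these data known. Input libraries were not analysed here. Alternatives changed the distance, list length, overlap, tie and motif rules.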

Additional observations from a re-analysis of the deposited data

How the results depend on the processing

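Of 79 recomputed values, 65 kept their value or stayed within 1.5 times the main count (for GC medians, within the counting interval of 1 window). They included all counts of members with a peak and of shared member regions. Keeping only the higher-scoring 50% of each list lowered the shared regions from 5 to 4 in WT cells and from 4 to 3 between the genotypes in complete medium. Ranked only among windows within 1 kb of a start, the Brd2 percentile was 1.82, 0.316, 1.71 and 1.20 (WT +Leu, WT -Leu, KO +Leu, KO -Leu), because fewer windows were ranked. Housekeeping genes with a window numbered 13, 15, 10 and 10 within 10 kb and 14, 29, 18 and 26 at any distance, beside 5, 8, 4 and 3 within 1 kb, since more windows count. With an A required after TGACNNNGC, or with TGANTCA, 0 member promoters had a match, so the Srsf2 match depends on the motif chosen. No paired analysis was possible because each condition has 1 library. The unknown depth limits every statement on a missing peak.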
